A study of Mus musculus with 12 samples.

Results

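Macrophages are followed here through 37 gene symbols that mark their identity and activation, in melanoma tumors grown in mice. The genes were taken from a list of symbols, and 36 of the 37 symbols were found among the 23940 genes of the table. The symbol Adgre1 had no row of its own, and its gene (the F4/80 receptor) is counted once, under the older symbol Emr1. Messenger RNA was measured in 12 tumors of YUMM1.7, a cell line from a mouse melanoma with an activated Braf gene. The 4 groups of 3 tumors were PD-L2-overexpressing tumors given a BRAF inhibitor (BRAFi), PD-L2-overexpressing tumors given vehicle, control tumors without PD-L2 overexpression given BRAFi, and control tumors given vehicle. The design text describes the BRAFi tumors as resistant to the drug. The labels name neither the compound, its dose and duration, the age of the mice nor the construct that carries PD-L2. The sample labels give NSG mice as hosts and the design text gives NOD/SCID mice, and this conflict is not settled here. The labels number the tumors of a group as separate tumors without saying that each came from its own mouse, so p-values measure the spread between tumors.

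Macrophages in a tumor are host cells that descend from blood monocytes or from tissue-resident precursors and depend on the growth factor receptor Csf1r. They clear debris with scavenger receptors and lysosomal enzymes, bind antibody through Fc receptors and tag cells with complement C1q. Programs named resident or alternative activation (Folr2, Mrc1, Cd163, Arg1) are set apart by convention from classical, inflammatory activation. Mice of the NSG and NOD/SCID types lack T and B cells and have myeloid cells with known defects, which limits them as a model of tumor immunity. All levels are in FPKM, which counts fragments relative to transcript length and library total, and the read depth behind them is unknown. In bulk tumor RNA, fewer macrophages and less RNA per macrophage cannot be told apart.

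For genes that moved together or lie side by side, the 250 bases before the RefSeq start site (build GRCm38.p6, while the deposited values are on mm9) are shown to let a reader compare their control regions. Shown are a part of these genes: the lysozyme pair Lyz1 and Lyz2, 2 of the adjacent complement C1q genes, and Pf4. Capitals mark GGAAGT, the core word bound by ETS-family factors, or GAGGAAGT, a longer word of the kind bound by the macrophage ETS factor PU.1 (the product of Spi1), on either strand. A match on the opposite strand reads ACTTCC or ACTTCCTC. Every window shown holds a match. Windows not shown include those of Cbr2, Trem2 and Cd68, also called lower under BRAFi, which hold neither word. A window of Folr2, not shown either, holds GGAAGT.
Lyz1 (chr10:117292869-117293118, minus strand): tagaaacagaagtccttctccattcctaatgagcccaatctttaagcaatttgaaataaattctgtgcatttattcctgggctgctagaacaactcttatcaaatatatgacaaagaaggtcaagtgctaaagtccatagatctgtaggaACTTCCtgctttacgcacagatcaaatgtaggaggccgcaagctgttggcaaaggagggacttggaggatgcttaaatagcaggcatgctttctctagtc
Lyz2 (chr10:117282273-117282522, minus strand): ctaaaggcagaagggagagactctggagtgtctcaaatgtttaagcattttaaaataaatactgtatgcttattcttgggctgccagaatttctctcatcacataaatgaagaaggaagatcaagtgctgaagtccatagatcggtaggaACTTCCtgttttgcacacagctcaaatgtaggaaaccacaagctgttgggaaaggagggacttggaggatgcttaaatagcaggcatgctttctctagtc
C1qb (chr4:136886201-136886450, minus strand): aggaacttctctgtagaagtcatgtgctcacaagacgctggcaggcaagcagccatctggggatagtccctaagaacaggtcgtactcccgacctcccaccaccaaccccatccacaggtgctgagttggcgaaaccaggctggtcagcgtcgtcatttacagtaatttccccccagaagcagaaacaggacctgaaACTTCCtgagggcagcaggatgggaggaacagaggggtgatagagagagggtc
C1qc (chr4:136892915-136893164, minus strand): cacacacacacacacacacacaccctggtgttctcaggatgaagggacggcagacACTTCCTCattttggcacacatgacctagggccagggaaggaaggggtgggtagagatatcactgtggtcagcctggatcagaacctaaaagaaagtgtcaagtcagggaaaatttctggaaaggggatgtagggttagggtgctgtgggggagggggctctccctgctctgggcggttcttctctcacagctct
Pf4 (chr5:90772185-90772434, plus strand): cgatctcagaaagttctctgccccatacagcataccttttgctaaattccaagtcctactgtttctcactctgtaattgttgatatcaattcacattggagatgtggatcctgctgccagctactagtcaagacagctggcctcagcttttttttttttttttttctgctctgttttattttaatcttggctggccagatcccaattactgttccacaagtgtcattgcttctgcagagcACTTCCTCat
Lyz1 and Lyz2 neighbour each other on chromosome 10 with no coding gene between them, and their windows matched at 200 of 248 aligned bases (80.6%), each with 1 ETS core word. C1qb, C1qc and C1qa are neighbours on chromosome 4. Promoter windows were found for 26 of the 36 genes. GAGGAAGT was in the windows of 3 of the 26 (C1qc, Pf4 and Retnla), against 2.79% of 27025 genes. GGAAGT, which also lies inside GAGGAAGT, was found for 12 of 26 genes, against 22.2%, and TGACTCA, the AP-1 word, for 2 of 26 (Cd68 and Folr2), against 5.16%. These matches describe letters, not binding.

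Macrophage transcripts were measurable in every tumor. Of the 36 genes, 34 passed the filter (12-tumor mean of 1 FPKM or more), and none of these 34 was listed at 0 in any tumor. Marco, a scavenger receptor, averaged 0.121 FPKM and was listed at 0 in 5 tumors, and Retnla, a marker of alternative activation in mice, averaged 0.298 FPKM and was listed at 0 in 6. Just inside the filter were Clec7a (1.51), Il10 (4.83), Cd163 (6.21) and Arg1 (8.46 FPKM). The highest mean levels over the 12 tumors, per transcript length, were those of Apoe (715 FPKM, range 223 to 1860), Lyz2 (417), C1qa (343), C1qb (289), C1qc (269) and Ctss (222). Csf1r averaged 47.9 FPKM, with 28.8, 67.3 and 17 in PD-L2 BRAFi tumors, 51.7, 48.7 and 22.4 in PD-L2 vehicle tumors, 49.8, 22.9 and 57.8 in control BRAFi tumors and 75.1, 60.2 and 73.2 in control vehicle tumors. The 36 genes together held 0.239 to 1.1% of a tumor's FPKM sum.

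In 3 of the 4 groups 1 tumor was the lowest for most of the 34 genes tested. PD-L2 BRAFi tumor 3 was the lowest of its group for 29 of 34 genes (38.4% of all genes tested) and the lowest of all 12 for 23, and PD-L2 vehicle tumor 3 was the lowest of its group for 31 (37.5%). Control BRAFi tumor 2 was the lowest of its group for 24 (36.4%) and the highest for 6. In control vehicle tumors no tumor led in this way, with 7, 10 and 17 genes lowest in tumors 1, 2 and 3, while tumor 1 was the highest of all 12 for 18 genes. A tumor's median deviation from the genes' means ran from -1.14 (PD-L2 BRAFi tumor 3) to 0.82 (control vehicle tumor 1) on the log2 scale. PD-L2 BRAFi tumor 2 also stood apart in another way: the row of 1 microRNA gene, Mir2137, held 16.1% of its FPKM sum and was listed at 0 in the other 11 tumors, and its Pdcd1lg2 (the gene of PD-L2) was the lowest of the PD-L2 tumors at 20.8 FPKM. In all 6 control tumors Pdcd1lg2 was at or under 3.54 FPKM. Counts and medians without single tumors stand beside the comparisons below.

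**Figure D1:**
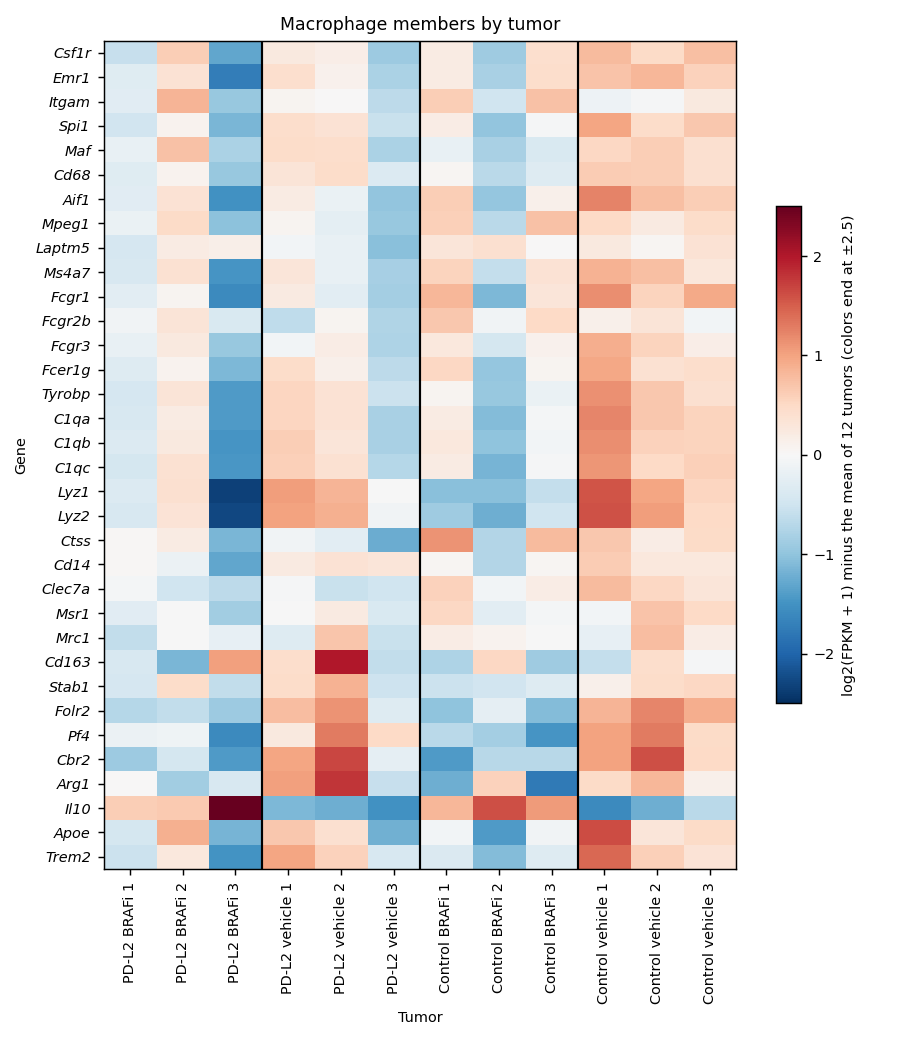
Each row is 1 of the 34 genes tested, in the order of their roles, and each column 1 tumor (numbered by replicate); color is log2(FPKM + 1) minus the gene's mean over the 12 tumors. PD-L2 BRAFi tumor 3 is blue for most genes (lowest of 12 for 23 of 34), while Il10 is red in all BRAFi tumors and blue in all vehicle tumors.

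BRAFi tumors carried less RNA of a small group of resident-type macrophage genes and of both lysozymes, and more Il10. Averaged over PD-L2 and control tumors, 8 of the 34 genes passed the test (limma, Benjamini-Hochberg adjusted p under 0.05 over 12117 genes). These were 7 lower (Cbr2, Pf4, Folr2, Lyz1, Lyz2, Trem2, Cd68) and 1 higher (Il10). Among all genes tested 24.7% passed, 11.2% lower and 13.4% higher, so the share of 8 in 34 is near the background and its split leans to lower. The median log2 fold change of the 34 was -0.604, against 0.009 for all genes, and 29 of 34 were below 0, against 48.7% of all genes. At an unadjusted p under 0.05 there were 16 of 34 genes, against 40.3% of all genes. With each of the 12 tumors left out in turn, Folr2, Pf4, Cbr2 and Il10 still passed. The count was 4 without PD-L2 vehicle tumor 1 or control vehicle tumor 1, either of which ended the calls of Lyz1, Lyz2, Trem2 and Cd68, and 14 without PD-L2 vehicle tumor 3 or 15 without PD-L2 BRAFi tumor 2. When each tumor was shifted to equal pan-leukocyte levels, a setting added after the data were seen, all 7 lower calls were lost and only Il10 passed. The median of the 34 was then -0.3, against 0.31 for all genes.

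Within the 2 backgrounds fewer genes passed. In PD-L2 tumors none of the 34 genes passed in limma (background 0.239%, of which 0.182% higher and 0.0578% lower), 7 had an unadjusted p under 0.05 against 21.3% of all genes, and the median log2 fold change was -0.446 against 0.007. With all tumors 28 of 34 genes were below 0 (48.9% of all genes). Without PD-L2 BRAFi tumor 3 there were 19 (47.2%). The median was -0.09 without that tumor and -0.76 without PD-L2 BRAFi tumor 2. Dropping PD-L2 vehicle tumor 1 gave -0.29, dropping tumor 2 gave -0.26 and dropping tumor 3 gave -0.77. The pan-leukocyte shift gave -0.22 (0.23 for all genes). In control tumors 4 of 34 passed (Folr2, Pf4 and Cbr2 lower, Il10 higher), against a background of 7.42% (3.91% lower, 3.51% higher), and the median was -0.835 against 0.016 (-0.45 against 0.4 with the pan-leukocyte shift). The control count was 0 when any of control BRAFi tumors 2 and 3, control vehicle tumors 1 and 2 and PD-L2 vehicle tumor 2 was left out. Calls over all genes also fell in these fits, to 4, 81, 2, 0 and 17 in that order, against 899 with all tumors. The control count was 1 without control BRAFi tumor 1, PD-L2 vehicle tumor 1 or PD-L2 BRAFi tumor 1, and 6 without PD-L2 BRAFi tumor 2 or 3. It was also 0 when the trend of fold change with transcript length was removed, when no filter was used and when the 2 control groups were fitted alone. The BRAFi contrasts in PD-L2 and control tumors share no tumor: 28 of 34 genes were below 0 in both and 4 above 0 in both, against 36.9% and 39.5% of all genes tested. Without PD-L2 BRAFi tumor 3 there were 19 of 34 below 0 in both, against 32.4% of all genes. The fold change was closer to 0 in PD-L2 tumors for 26 of 34 genes, against 62.1% of all genes, and no interaction passed (below). That count was 21 of 34 without PD-L2 vehicle tumor 3 (56.5% of all genes) or without PD-L2 BRAFi tumor 2 (56.6%). Leaving out any other tumor gave 24 to 28. Groups of 3 did not overlap, with BRAFi lower, for 4 of 34 genes in PD-L2 tumors (background 14.3%) and 18 of 34 in control tumors (17%), and with BRAFi higher for Il10 alone in each (15.6% and 19.1%).

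**Figure D2:**
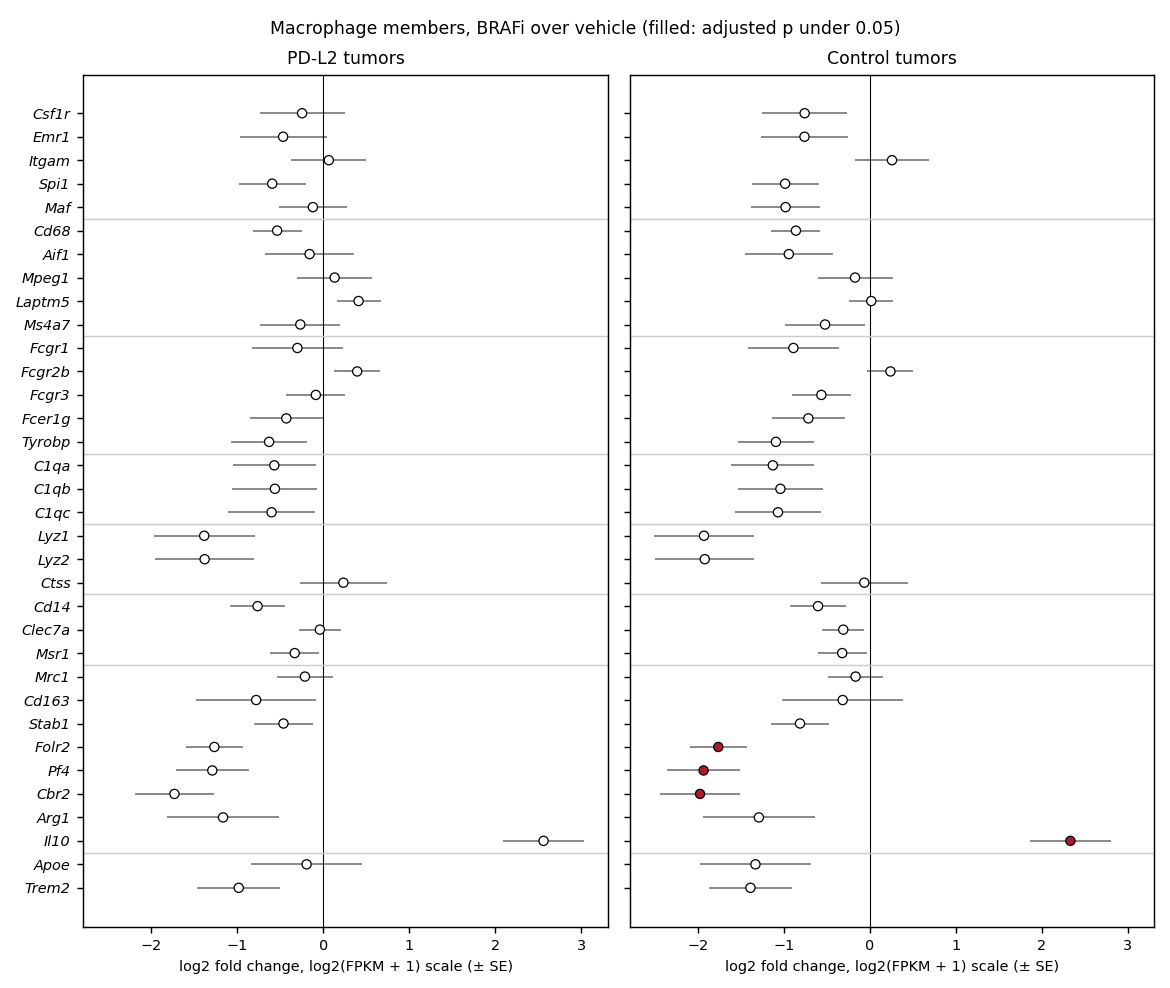
Log2 fold change, BRAFi over vehicle, with its standard error for the 34 genes tested, in PD-L2 tumors (left) and control tumors (right), on the log2(FPKM + 1) scale; gray lines separate the roles and filled points have an adjusted p under 0.05. Folr2, Pf4, Cbr2 and the lysozymes lie far to the left in both panels and Il10 far to the right, with 0 filled points at left and 4 at right.

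Of 8 tested resident and alternative activation genes, 3 fell (Folr2, Pf4 and Cbr2) and 1 rose (Il10) in the averaged comparison, where 11.2% of all genes were called lower and 13.4% higher. Folr2 is a folate receptor of resident-type macrophages. It had 11.3, 12.1 and 9.67 FPKM in PD-L2 BRAFi tumors and 33.3, 42.4 and 15.1 FPKM in PD-L2 vehicle tumors, and 8.99, 16.1 and 8.47 FPKM in control BRAFi tumors and 35, 45.4 and 36.8 FPKM in control vehicle tumors. The 2 treatments did not overlap within either background. Across backgrounds they did, as PD-L2 vehicle tumor 3 (15.1 FPKM) was below control BRAFi tumor 2 (16.1 FPKM). The averaged log2 fold change of Folr2 was -1.51 ± 0.236 (SE; limma adjusted p = 0.0064), and with the pan-leukocyte shift it was -1.21 (adjusted p = 0.147). An antisense gene, Gm10602, and a processed pseudogene, Gm45319, overlap Folr2 on the opposite strand.

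Pf4 encodes platelet factor 4, a chemokine that platelets store and that resident-type macrophages also express. It had 27.3, 28.1 and 9.38 FPKM in PD-L2 BRAFi tumors and 35.7, 76.1 and 43.2 FPKM in PD-L2 vehicle tumors, and 18.6, 16.3 and 10.2 FPKM in control BRAFi tumors and 61.8, 76.1 and 42.6 FPKM in control vehicle tumors. Every BRAFi tumor was below every vehicle tumor (9.38 to 28.1 against 35.7 to 76.1 FPKM). The averaged log2 fold change was -1.61 ± 0.3 (limma adjusted p = 0.00858). Cbr2, a carbonyl reductase expressed by resident-type macrophages in mice, had 16.9, 23.8 and 11.6 FPKM in PD-L2 BRAFi tumors and 65.7, 106 and 27.7 FPKM in PD-L2 vehicle tumors, and 11.5, 19.8 and 19.8 FPKM in control BRAFi tumors and 66.2, 102 and 46.3 FPKM in control vehicle tumors. Here too all 6 BRAFi tumors were below all 6 vehicle tumors, and the averaged log2 fold change was -1.85 ± 0.327 (limma adjusted p = 0.00817).

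Il10 encodes an anti-inflammatory cytokine that macrophages and many other cells make. It had 4.76, 4.88 and 21.3 FPKM in PD-L2 BRAFi tumors and 0.732, 0.628 and 0.309 FPKM in PD-L2 vehicle tumors, and 5.71, 10.6 and 6.82 FPKM in control BRAFi tumors and 0.249, 0.613 and 1.36 FPKM in control vehicle tumors. The groups were far apart, with 4.76 FPKM as the lowest of 6 BRAFi tumors and 1.36 FPKM as the highest of 6 vehicle tumors. The averaged log2 fold change was 2.45 ± 0.333 (limma adjusted p = 0.00502), and it understates the change because the vehicle levels are low beside the added 1. The highest Il10 was in PD-L2 BRAFi tumor 3, the tumor with the lowest level of most other macrophage genes, and the bulk RNA does not say which cells held it.

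The other genes of this role did not pass. Mrc1, the mannose receptor, had 27.3, 42.4 and 36.8 FPKM in PD-L2 BRAFi tumors and 33.9, 69.4 and 28.4 FPKM in PD-L2 vehicle tumors, and 48.6, 45.4 and 42.1 FPKM in control BRAFi tumors and 36.9, 73.1 and 48.9 FPKM in control vehicle tumors. Its groups overlapped, with an averaged log2 fold change of -0.19 ± 0.229 (limma adjusted p = 0.555). Arg1, the arginine-degrading enzyme arginase, had 6.61, 3.13 and 4.77 FPKM in PD-L2 BRAFi tumors and 14.4, 25.2 and 4.09 FPKM in PD-L2 vehicle tumors, and 2.28, 10.3 and 1.22 FPKM in control BRAFi tumors and 9.65, 12.6 and 7.3 FPKM in control vehicle tumors. Its averaged log2 fold change was -1.23 ± 0.459 and missed the threshold (limma adjusted p = 0.0727). The hemoglobin scavenger Cd163 (-0.55 ± 0.496) and the scavenger receptor Stab1 (-0.64 ± 0.242) also missed it, and Cd163 was highest in PD-L2 vehicle tumor 2 at 22.5 FPKM.

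**Figure D3:**
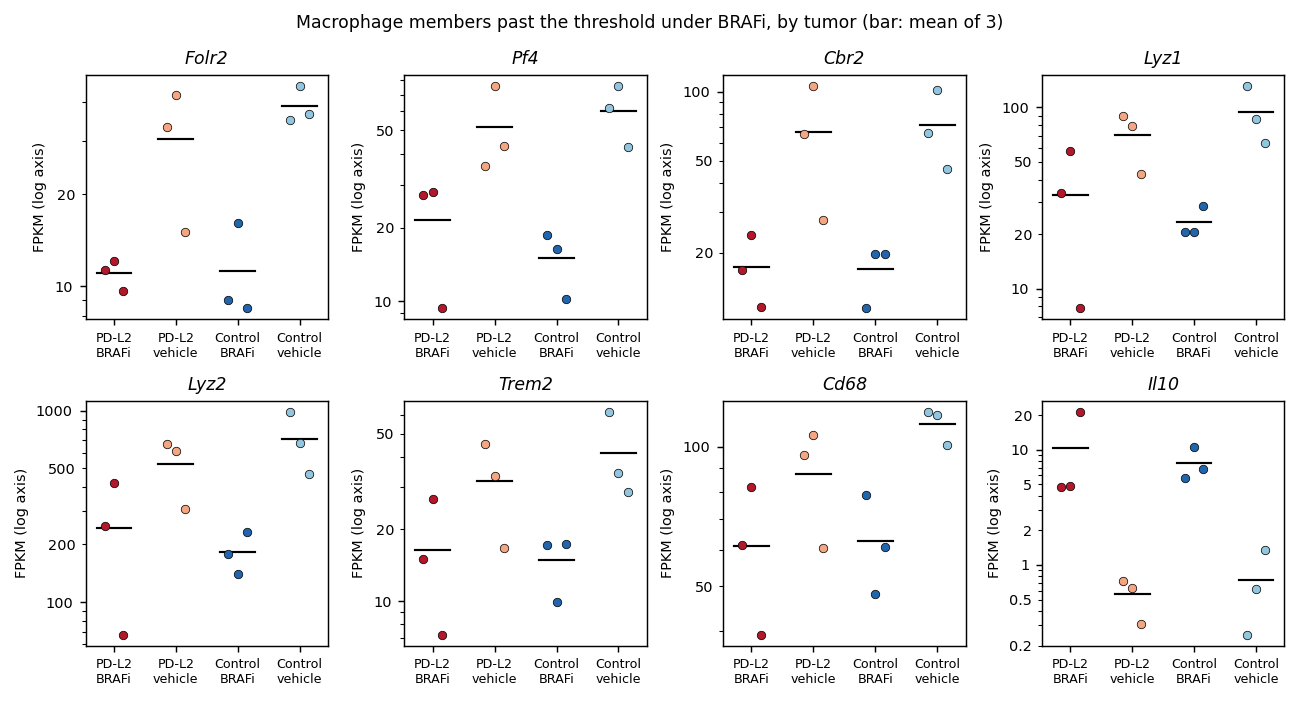
FPKM of the 8 genes past the threshold in the averaged BRAFi comparison, 1 point for each tumor and a bar at the mean of 3, on log axes whose ranges differ between genes. For Pf4 and Cbr2 all 6 BRAFi tumors lie below all 6 vehicle tumors, and for Il10 all 6 lie above.

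Lysozymes are enzymes that cut bacterial cell walls, and Lyz2 is the main lysozyme gene of mouse macrophages. Lyz2 had 249, 418 and 67.6 FPKM in PD-L2 BRAFi tumors and 667, 613 and 308 FPKM in PD-L2 vehicle tumors, and 178, 140 and 231 FPKM in control BRAFi tumors and 986, 679 and 468 FPKM in control vehicle tumors. The groups overlapped only in PD-L2 tumors, through BRAFi tumor 2 and vehicle tumor 3. The averaged log2 fold change was -1.65 ± 0.409 (limma adjusted p = 0.0192). Lyz1 ranged from 7.78 to 57.5 FPKM in the 6 BRAFi tumors and from 42.8 to 132 FPKM in the 6 vehicle tumors, with a log2 fold change of -1.66 ± 0.413 (adjusted p = 0.0196). The transcripts of Lyz1 and Lyz2 are identical at 1211 of 1262 aligned bases (96%), so reads may have been split between them, and their ratio was 0.115 to 0.147 in BRAFi tumors and 0.128 to 0.139 in vehicle tumors. Ctss, the lysosomal protease cathepsin S, did not follow them: its averaged log2 fold change was 0.09 ± 0.357 (adjusted p = 0.878).

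Trem2 and Apoe handle lipids. Trem2, a lipid-sensing receptor that signals through Tyrobp, had 15, 26.8 and 7.25 FPKM in PD-L2 BRAFi tumors and 45.3, 33.4 and 16.7 FPKM in PD-L2 vehicle tumors, and 17.2, 9.9 and 17.4 FPKM in control BRAFi tumors and 61.7, 34.4 and 28.5 FPKM in control vehicle tumors. The control groups did not overlap and the PD-L2 groups did. Its averaged log2 fold change was -1.19 ± 0.34 (limma adjusted p = 0.0307), and the call was also lost without PD-L2 BRAFi tumor 1 or 3, PD-L2 vehicle tumor 2 or control BRAFi tumor 2 (adjusted p of 0.0546 to 0.0688). Apoe, the lipid carrier apolipoprotein E, was the most abundant of the genes, and its averaged log2 fold change was -0.76 ± 0.457 (adjusted p = 0.234).

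Of the markers carried by most macrophages, Cd68 fell and the others did not pass. Cd68, a lysosomal membrane protein, had 61.5, 82 and 39.3 FPKM in PD-L2 BRAFi tumors and 96.2, 106 and 60.6 FPKM in PD-L2 vehicle tumors, and 78.7, 48 and 60.9 FPKM in control BRAFi tumors and 119, 117 and 101 FPKM in control vehicle tumors. The control groups were apart and the PD-L2 groups overlapped. The averaged log2 fold change was -0.70 ± 0.201 (limma adjusted p = 0.031), and with the transcript-length trend removed it was -0.42 (adjusted p = 0.168). Leaving out any of 8 of the 12 tumors ended the call (adjusted p of 0.0520 to 0.0784); the exceptions were PD-L2 BRAFi tumor 2, PD-L2 vehicle tumor 3, control BRAFi tumor 1 and control vehicle tumor 3. Aif1 (-0.55), Ms4a7 (-0.39), Mpeg1 (-0.02) and Laptm5 (0.21) had log2 fold changes with adjusted p of 0.276 or more.

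Among lineage genes none of 5 passed. Csf1r, whose values are given above, had an averaged log2 fold change of -0.50 ± 0.349 (limma adjusted p = 0.301). Spi1, the gene of the lineage factor PU.1, had -0.79 ± 0.275 (adjusted p = 0.0585), Emr1 -0.61 ± 0.358 and the factor Maf -0.55 ± 0.281. Itgam, the integrin chain CD11b that monocytes, neutrophils and macrophages share, was the exception in sign at 0.16 ± 0.308. The libraries do not mark strand, so reads from a stretch that 2 genes share cannot be told apart. Such stretches join Csf1r to Hmgxb3, Maf to the antisense gene Gm15655, Fcgr2b to the antisense gene Gm38204 and Stab1 to Nt5dc2 on opposite strands, and Itgam to the coding gene Gm49368 on the same strand.

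The C1q chains are the 3 subunits of the first complement component, and macrophages are their main source. C1qa had 230, 349 and 113 FPKM in PD-L2 BRAFi tumors and 437, 393 and 173 FPKM in PD-L2 vehicle tumors, and 348, 143 and 293 FPKM in control BRAFi tumors and 707, 485 and 446 FPKM in control vehicle tumors. The control groups did not overlap for any of the 3 chains, the PD-L2 groups overlapped for all of them, and none passed. Their averaged log2 fold changes were close, at -0.85 ± 0.341 for C1qa (limma adjusted p = 0.0903), -0.80 ± 0.35 for C1qb and -0.83 ± 0.356 for C1qc. The chains kept a narrow ratio within tumors: C1qb to C1qa was 0.811 to 0.89 in BRAFi tumors and 0.793 to 0.902 in vehicle tumors.

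Fc receptors and their signalling adapters gave no call among 5 genes. Tyrobp (DAP12), the adapter of Trem2, had 103, 173 and 51.3 FPKM in PD-L2 BRAFi tumors and 202, 177 and 95.4 FPKM in PD-L2 vehicle tumors, and 146, 71.1 and 123 FPKM in control BRAFi tumors and 305, 224 and 184 FPKM in control vehicle tumors. Its averaged log2 fold change was -0.86 ± 0.313 (limma adjusted p = 0.0671), while the gamma chain Fcer1g had -0.57 ± 0.3 and the high-affinity receptor Fcgr1 -0.59 ± 0.373. The activating receptor Fcgr3 (-0.32 ± 0.242) and the inhibitory receptor Fcgr2b (0.32 ± 0.189) had opposite signs, and neither passed. Their ratio is a pattern picked out after the values were seen and is given without a test. Fcgr2b over Fcgr3 was 1.34, 1.32 and 1.85 in PD-L2 BRAFi tumors and 0.826, 1.13 and 1.25 in PD-L2 vehicle tumors, and 1.64, 1.59 and 1.61 in control BRAFi tumors and 0.71, 1.04 and 1.04 in control vehicle tumors. Every BRAFi tumor was above every vehicle tumor. Of all genes tested, 0.743% had a ratio to Fcgr3 that was higher in all 6 BRAFi tumors, and among the 33 other genes of the set these were Fcgr2b and Il10. Ratios to Fcgr3 that were lower in all 6 BRAFi tumors (0.19% of all genes) belonged to 7 of the 33, namely Tyrobp, C1qa, Lyz1, Lyz2, Pf4, Cbr2 and Trem2. Many genes of the set were low or high in the same tumors, and a ratio between 2 of them cancels part of that spread. For most other genes it does not, so the shares of all genes are not a like comparison. Fcgr3 and Fcgr2b transcripts share a stretch with 499 of 521 bases identical (95.8%), so part of their reads may have been assigned to either.

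Pattern recognition and scavenger receptors gave no call among the 3 tested. Cd14, the co-receptor for bacterial lipopolysaccharide, was nevertheless lower in all 6 BRAFi tumors (10.5 to 28.3 FPKM) than in all 6 vehicle tumors (32.0 to 43.1 FPKM), and its averaged log2 fold change of -0.68 ± 0.227 just missed the threshold (limma adjusted p = 0.0503). With Pf4 and Cbr2 it made 3 of 34 genes that separated the treatments downward, against 4.13% of all genes, and Il10 was 1 of 34 upward, against 4.97%. The scavenger receptor Msr1 had -0.33 ± 0.203 and Clec7a, the beta-glucan receptor dectin-1, -0.17 ± 0.174.

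Levels were also set against Csf1r in the same tumor, as a description chosen after the values were seen. Of 33 ratios to Csf1r, 31 overlapped between 6 BRAFi and 6 vehicle tumors. None was lower in every BRAFi tumor (0.0248% of all genes) and 2 were higher (0.751% of all genes), those of Il10 and Itgam. As with Fcgr3, these shares of all genes are not a like comparison. Itgam over Csf1r was 0.41, 0.398 and 0.418 in PD-L2 BRAFi tumors and 0.296, 0.302 and 0.396 in PD-L2 vehicle tumors, and 0.457, 0.441 and 0.433 in control BRAFi tumors and 0.177, 0.238 and 0.237 in control vehicle tumors. The treatments touched closely in PD-L2 tumors and were well apart in control tumors. Lyz2 over Csf1r ranged from 3.57 to 8.64 in BRAFi tumors and from 6.39 to 13.8 in vehicle tumors, so they overlapped. Folr2 over Csf1r ranged from 0.146 to 0.703 in BRAFi tumors and from 0.466 to 0.871 in vehicle tumors. Median ratios were lower in BRAFi tumors for 21 of 33 genes. The share of all genes was not computed for this count, so it is given as a description only.

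**Figure D4:**
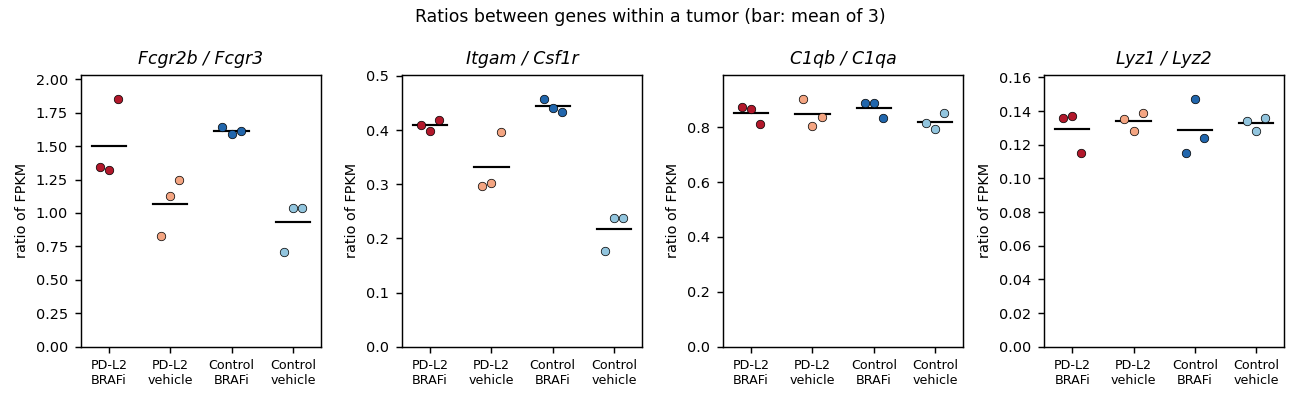
Ratio of FPKM between 2 genes of the same tumor, 1 point for each tumor and a bar at the mean of 3, on axes that start at 0. Fcgr2b over Fcgr3 and Itgam over Csf1r are higher in all 6 BRAFi tumors than in all 6 vehicle tumors, while C1qb over C1qa and Lyz1 over Lyz2 overlap in a narrow band.

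Other genes of macrophage biology were listed beside these 36. Of 11 tested genes of a further resident-macrophage list, the averaged BRAFi comparison called 3 lower and 1 higher, against 11.2% and 13.4% of all genes. The lower ones were Ltc4s, a leukotriene synthase (-1.45 ± 0.258; limma adjusted p = 0.00831), Gas6, a ligand of phagocytosis receptors (-1.30 ± 0.261; adjusted p = 0.0108), and F13a1, a coagulation factor chain (-1.28 ± 0.326; adjusted p = 0.0206). The higher one was the growth factor Igf1 (0.80 ± 0.206; adjusted p = 0.0218). Gas6 had 11.1, 21.3 and 8.49 FPKM in PD-L2 BRAFi tumors and 27.1, 41.5 and 13.3 FPKM in PD-L2 vehicle tumors, and 10, 10.2 and 9.65 FPKM in control BRAFi tumors and 33.4, 36.4 and 33.7 FPKM in control vehicle tumors. The control groups were far apart, and it was the gene of this list that also passed in control tumors alone (-1.70 ± 0.369; adjusted p = 0.0354).

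Both ligands of Csf1r passed, in opposite directions. Csf1 had 18.1, 33.8 and 9.48 FPKM in PD-L2 BRAFi tumors and 37.2, 50.5 and 32 FPKM in PD-L2 vehicle tumors, and 22.1, 13.1 and 24.8 FPKM in control BRAFi tumors and 33.9, 36.8 and 42.3 FPKM in control vehicle tumors. Its averaged log2 fold change was -0.998 ± 0.268 (limma adjusted p = 0.0247). The control groups were apart and the PD-L2 groups overlapped through BRAFi tumor 2 and vehicle tumor 3. Il34, the second ligand, had 29, 30.7 and 27.5 FPKM in PD-L2 BRAFi tumors and 26.1, 27.7 and 25.6 FPKM in PD-L2 vehicle tumors, and 34.1, 49.1 and 30.8 FPKM in control BRAFi tumors and 27.1, 22.5 and 22.3 FPKM in control vehicle tumors. Its averaged log2 fold change was 0.38 ± 0.109 (adjusted p = 0.0323). Of 9 tested growth factors and monocyte chemokines, 2 were called higher (Il34 and Vegfa, 0.60 ± 0.196), against 13.4% of all genes. Of the same 9, 1 was lower (Csf1), against 11.2%, and the monocyte attractant Ccl2 had -0.30 ± 0.278.

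The further lists were read beside all genes tested, of which the averaged comparison called 13.4% higher and 11.2% lower. None of 8 classical activation genes passed, the smallest p being that of Il1b (1.02 ± 0.373; limma adjusted p = 0.0675). Of 9 macrophage transcription factors Runx1 was higher (0.46 ± 0.101; adjusted p = 0.013), and of 11 lipid-associated macrophage genes none passed, the smallest p being that of Fabp4 (-1.21 ± 0.463; adjusted p = 0.0783). Of 10 phagocytosis receptors 3 were higher, Itgb3 (1.23 ± 0.296), Itgax (0.90 ± 0.276) and Lrp1 (0.58 ± 0.188). Of 19 lysosome genes 1 was higher (Ctsl, 0.75 ± 0.236) and 2 lower (Hexa, -0.56 ± 0.128, and Ctsd, -0.35 ± 0.113). Of 7 tested monocyte genes S100a4 was lower (-0.89 ± 0.277; adjusted p = 0.04), and the monocyte receptor Ccr2 had 0.27 ± 0.28 and the monocyte surface gene Ly6c2 -0.29 ± 0.416.

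Markers of other cells moved in part with these genes, and their part in the results was not tested. The averaged comparison called 11.2% of all genes lower and 13.4% higher. Of 16 pan-leukocyte genes Ncf1, a subunit of the phagocyte oxidase, was lower (-0.98 ± 0.253; limma adjusted p = 0.0218), and the list's averaged median was -0.32 with 13 of 16 below 0. The summed pan-leukocyte level was 233 to 446 FPKM in PD-L2 BRAFi tumors, 298 to 478 in PD-L2 vehicle tumors, 351 to 602 in control BRAFi tumors and 520 to 686 in control vehicle tumors. Ptprc (CD45), carried by all leukocytes, had a log2 fold change of 0.23 ± 0.261. With the shift to equal pan-leukocyte levels Il10 was at 2.75 (adjusted p = 0.0177), Pf4 at -1.31 (adjusted p = 0.112) and Cbr2 at -1.55 (adjusted p = 0.0729).

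Erythroid genes, a sign of blood in the sample and of interest because platelets hold Pf4, summed to 164 to 263 FPKM in PD-L2 BRAFi tumors, 132 to 373 in PD-L2 vehicle tumors, 31.1 to 44.7 in control BRAFi tumors and 170 to 269 in control vehicle tumors. They were low in control BRAFi tumors alone. There 3 of 4 tested genes passed lower (Hba-a1, -2.25 ± 0.357, limma adjusted p = 0.0277), against 3.91% of all genes. Pf4 was low in both BRAFi groups, and the part of blood or platelets in its values was not tested. Neutrophil genes summed to 6.12 to 47.4 FPKM over the 12 tumors, and none of 4 tested passed (Cxcr2, -0.12 ± 0.236; S100a8, -0.07 ± 0.598). Lymphocyte and NK cell genes summed to 1.47 to 8.33 FPKM, none of 2 tested passed (Cd79b, -0.13 ± 0.294), and Cd3e, a defining T cell gene, was listed at 0 in all but PD-L2 BRAFi tumor 3 (0.0456 FPKM). Dendritic cell genes summed to 81.9 to 425 FPKM in PD-L2 BRAFi tumors, 68.2 to 164 in PD-L2 vehicle tumors, 165 to 779 in control BRAFi tumors and 188 to 588 in control vehicle tumors, and 1 of 5 passed (Itgax, which macrophages also express), with H2-Ab1 at 0.50 ± 0.529. Of 10 fibroblast and pericyte genes 4 were higher (Rgs5, 1.57 ± 0.296, Pdgfra, Pdgfrb and Cspg4), against 13.4% of all genes in the averaged comparison. None passed among 9 endothelial (Cdh5, 1.17 ± 0.473; Pecam1, 0.27 ± 0.211), 5 mast cell (Kit, 0.32 ± 0.155) and 7 skeletal muscle genes (Myh4, -0.99 ± 0.72). The melanocyte genes Pmel and Tyr averaged 0.304 and 0.885 FPKM, so these pigment-cell markers are low in tumors labelled melanoma. Sox10 ranged from 0.0307 to 24.9 FPKM with its highest value in control BRAFi tumor 1. The listed melanoma and melanocyte genes, Braf among them, summed to 23 to 27.2 FPKM in PD-L2 BRAFi tumors and 20.3 to 24.7 in PD-L2 vehicle tumors. The sums were 35.1 to 59.6 FPKM in control BRAFi tumors and 19.9 to 21.6 in control vehicle tumors. Of 4 tested melanoma genes Braf itself was higher (1.27 ± 0.24; adjusted p = 0.0089).

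None of the macrophage genes passed the threshold between PD-L2 and control tumors, and none separated all 6 PD-L2 tumors from all 6 control tumors (0.404% of all genes higher, 0.223% lower). Under BRAFi 0 of 34 passed in limma (background 0.0743%, of which 0.0578% higher and 0.0165% lower), 1 had an unadjusted p under 0.05 against 7.06% of all genes, and the median log2 fold change, PD-L2 over control, was -0.244. With all tumors 22 of 34 genes were below 0 (51.7% of all genes), and 12 without PD-L2 BRAFi tumor 3 (51.3%). The sign of the median rested on that tumor: without it the median was 0.11. Dropping PD-L2 BRAFi tumor 2 gave -0.54, and dropping control BRAFi tumor 1, 2 or 3 gave -0.06, -0.5 or -0.12. Rescaling to equal sums gave -0.45 (all genes -0.19), and the pan-leukocyte shift gave 0.25 (all genes 0.48). No gene of the 34 separated the groups of 3 under BRAFi, against 6.68% higher and 4.78% lower among all genes. Folr2 averaged 11 ± 1.26 FPKM in PD-L2 BRAFi tumors and 11.2 ± 4.28 FPKM in control BRAFi tumors, (SD, n = 3 each). Il10 averaged 10.3 ± 9.54 FPKM in PD-L2 BRAFi tumors and 7.69 ± 2.54 FPKM in control BRAFi tumors, so both genes differed by less than the spread between tumors. Among the listed markers of other cells, the erythroid genes Hba-a1, Hbb-b1 and Hbb-b2 were higher in PD-L2 BRAFi tumors (log2 fold changes of 2.47, 2.38 and 2.18). Under vehicle 0 of 34 passed (background 0%), and 5 had an unadjusted p under 0.05 against 10.9% of all genes. Of the 34, 32 were below 0 (48.1% of all genes), with a median of -0.589 against 0.007 for all genes. Without PD-L2 vehicle tumor 3 the median was -0.27 with 29 of 34 below 0 (50.1% of all genes). With the pan-leukocyte shift the median was 0.06, against 0.65 for all genes. The groups did not overlap, PD-L2 lower, for 10 of 34 genes (10.5% of all genes), and for none with PD-L2 higher (10%). The smallest p was that of Clec7a, with 1.33, 0.611 and 0.678 FPKM in PD-L2 vehicle tumors and 3.14, 2.4 and 1.93 FPKM in control vehicle tumors, a log2 fold change of -0.90 ± 0.246 (adjusted p = 0.285). Laptm5 (-0.65 ± 0.255), Aif1 (-1.19 ± 0.513), Fcgr1 (-1.19 ± 0.528) and Fcgr3 (-0.76 ± 0.342) followed. All 16 pan-leukocyte genes were also below 0 under vehicle, with a median of -0.59. All 5 tested dendritic cell genes were below 0 (median -1.57), as were 8 of 9 endothelial genes (median -0.27) and all 7 skeletal muscle genes (median -0.45). Under BRAFi the 16 pan-leukocyte genes (median -0.47) and the 5 dendritic cell genes (median -0.89) were all below 0 as well. There 2 of 9 endothelial genes (median 0.27) and 1 of 7 skeletal muscle genes (median 0.91) were below 0. Muscle genes summed to 15.7, 107 and 1.98 FPKM in PD-L2 vehicle tumors and 8.36, 2.86 and 427 FPKM in control vehicle tumors. Single tumors thus held most of the muscle level. Endothelial genes summed to 54.6 to 66.4 FPKM in PD-L2 vehicle tumors and 90.6 to 133 FPKM in control vehicle tumors. The part of these cells in the lower macrophage values was not tested.

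**Figure D5:**
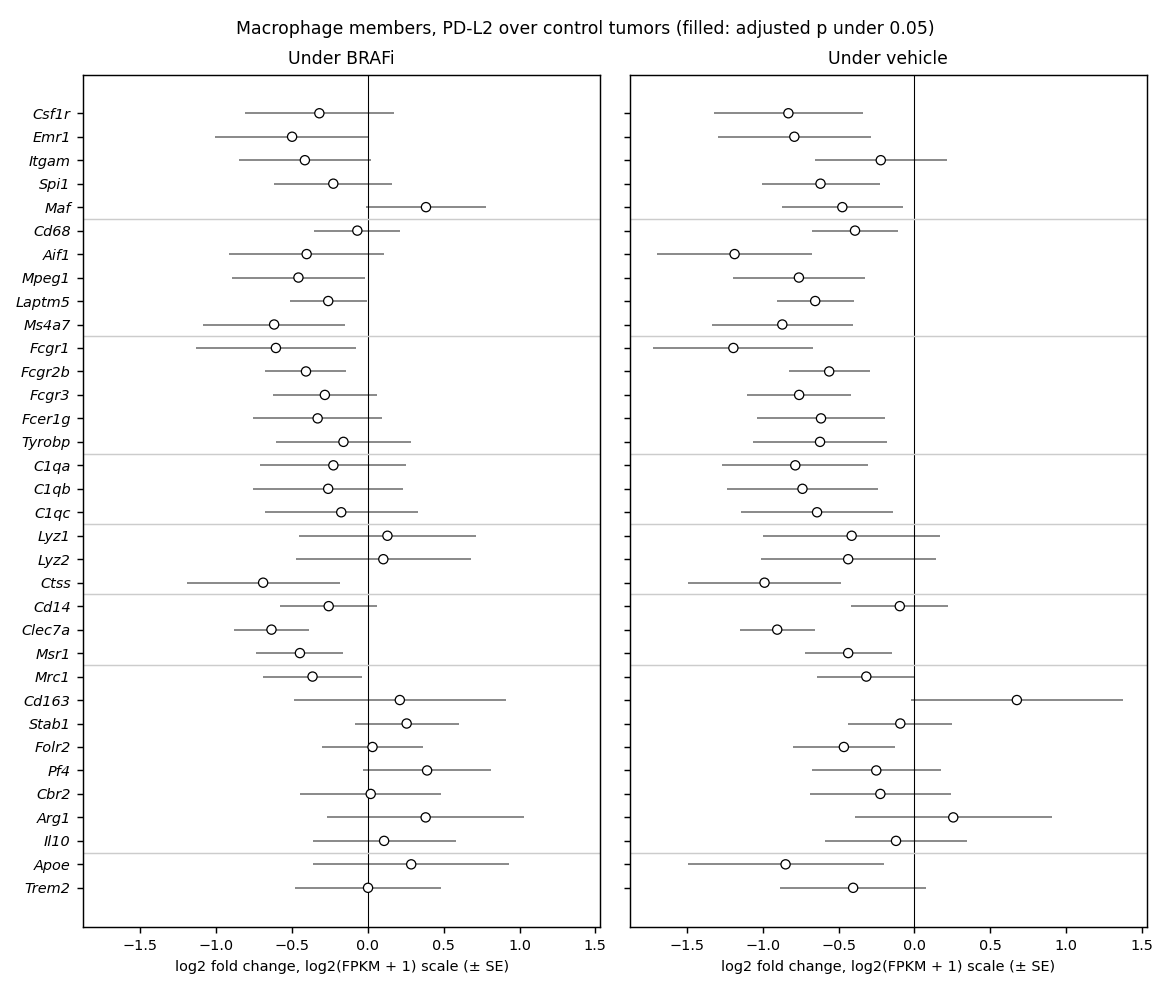
Log2 fold change, PD-L2 over control tumors, with its standard error for the 34 genes tested, under BRAFi (left) and under vehicle (right), on the log2(FPKM + 1) scale; gray lines separate the roles. No point is filled in either panel, and under vehicle 32 of 34 points lie below 0 (48.1% of all genes tested).

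No macrophage gene responded to BRAFi differently in PD-L2 and control tumors past the threshold. In the interaction test 0 of 34 passed in limma (background 0.0165%), and 0 of 34 had an unadjusted p under 0.05 against 4.47% of all genes. The smallest interaction p among the 34 belonged to Maf (0.86 ± 0.561; adjusted p = 0.956), and those of Folr2 (0.50 ± 0.472), Pf4 (0.64 ± 0.599), Cbr2 (0.24 ± 0.654) and Il10 (0.23 ± 0.666) were each about as large as their standard errors or smaller. With standard errors of this size, a difference of the same order between the 2 backgrounds would not have been detected.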

How the data were processed

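Messenger RNA was measured in 12 tumors, 3 in each of 4 groups taken from the labels. The authors deposited 1 table of FPKM values for 23940 genes. TopHat, TopHat2, Cuffnorm, Cuffdiff and mm9 are named per the submitters' processing notes. Their versions and roles and the annotation were not given in the sources used here. Per the labels' protocols the libraries were poly(A)-selected and unstranded. The protocol gives paired-end reads and the design text single-end reads, which was not settled. FPKM keeps no depth, so no counting interval is given, and errors are SD between tumors or SE of the model.

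From these values log2(FPKM + 1) was computed for the 12117 genes whose 12-library mean reached 1 FPKM. Group means were fitted with limma 3.58.1 in R 4.3.3 (lmFit, eBayes with a trend), with 6 two-sided contrasts and Benjamini-Hochberg adjustment over all genes tested at 0.05. Fold changes are on the log2(FPKM + 1) scale and understate changes of low genes. The averaged BRAFi comparison is the mean of the contrasts in PD-L2 and control tumors. The fit was tested on simulated data.

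Genes named are all members, with values by tumor for those past the threshold and for Csf1r, Cd68, Lyz2, Tyrobp, C1qa, Mrc1, Arg1 and Il10. From each of 18 other lists they are those past the threshold, up to 4 by smallest p, or else the gene with the smallest p, plus a set of markers named in the rule. For members, the genes nearest the filter on either side are also named. Genes singled out beyond this (the ratios, Cd163, Clec7a under PD-L2, Pmel and Tyr) were chosen after their values were seen. The members and lists were chosen with earlier results of these data known. Transcript lengths and overlaps came from GENCODE vM21 (GRCm38) and promoters from RefSeq GRCm38.p6, matched by symbol; 99.4% of the genes tested had a length.

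Alternatives were another pseudocount (0.1), no filter, a filter of 5 FPKM, rescaling to equal sums, quantile normalization, a replicate block, removal of the transcript-length trend, each tumor left out, the 2 compared groups alone and, added after the data were seen, a shift to equal pan-leukocyte levels.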

Additional observations from a re-analysis of the deposited data

How the results depend on the processing

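The counts of macrophage genes past the threshold are given against 4 (BRAFi in control tumors), 0 (BRAFi in PD-L2 tumors) and 8 (BRAFi averaged). The control count was 0 with no filter, with the length trend removed (also together with a replicate block), with the 2 groups fitted alone and with the shift to equal pan-leukocyte levels. The PD-L2 count was 1 (Il10) with a pseudocount of 0.1. The averaged count was 1 with the pan-leukocyte shift and stayed within 1.5 times of 8 with the other whole-data settings. Leaving out 1 tumor gave 0 to 6 in control tumors, 0 to 1 in PD-L2 tumors and 4 to 15 in the average. The 2 comparisons of PD-L2 with control tumors and the interaction gave 0 under every alternative run. No call of a member changed direction. With the length trend removed the averaged count was 8, with Stab1 (-0.93) in and Cd68 out. Over 12039 genes, which are not independent replicates, BRAFi fold change was larger with greater transcript length (Spearman 0.413 in PD-L2 and 0.456 in control tumors); the cause was not tested. Of all genes, 54 were called in control tumors with the length trend removed, against 899, 196 with no filter and 0 with the pan-leukocyte shift. Rescaling to equal sums moved the median of all genes to 0.17 in control tumors and 0.1 in the average. Same-numbered tumors' deviations correlated from -0.37 to 0.24, which with 3 tumors in a group cannot show whether replicate numbers pair the tumors. With a replicate block the counts were 6, 0 and 9. Calls over all genes in control tumors were then 1334, against 899. Depth is unknown and limits levels near 0, such as those of Marco and Retnla.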
